A study of Mus musculus with 20 samples.

Results

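The genes described here are 10 that write, copy or remove DNA methylation in mouse cells: Tet1, Tet2, Tet3, Dnmt1, Dnmt3a, Dnmt3b, Uhrf1, Tdg, Mbd4 and Gadd45a. They were taken by symbol from 2 tables of read counts, 1 for pooled spleen and peripheral lymph nodes (pLNs) with 16740 genes and 1 for mesenteric lymph nodes (mLNs) with 16784 genes, and all 10 were found in both. The RNA sequencing covered regulatory T (Treg) cells, sorted as CD4+YFP+ (Foxp3+) cells, and CD4+Foxp3- T cells, sorted as CD4+YFP- cells, from C57BL/6 mice aged 14 weeks. WT mice carried Foxp3Cre alone, in which a YFP-Cre fusion is expressed from the Foxp3 locus, and DKO mice were Tet2/3 fl/fl Foxp3Cre, so that Tet2 and Tet3 are deleted in cells that express Foxp3. Each of the 4 groups (WT Treg, DKO Treg, WT Foxp3- and DKO Foxp3-) held 2 biological replicates from spleen and pLNs and 3 from mLNs, 20 libraries in all. The DKO replicates of spleen and pLNs came from a pair of littermates of unequal disease, with a more enlarged spleen in one mouse than in the other. The labels do not give which replicate number is which mouse. The Foxp3- cells of DKO mice cannot be taken as cells with intact Tet2 and Tet3, since the sort does not remove cells that once expressed Foxp3 and the Cre and then lost them.

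The depth of a library was 13525932 to 15253141 reads on genes for spleen and pLNs and 9998478 to 15449158 for mLNs. Levels within a gene are CPM, that is counts scaled to a common library size, after TMM normalization, and 3 counts, taken as the floor of detection, correspond to between 0.172 and 0.299 CPM. The summed level of 5 Treg markers (Foxp3, Il2ra, Ikzf2, Ctla4, Tnfrsf18) was 1480 to 2040 CPM in the 10 Treg libraries and 133 to 348 CPM in the Foxp3- libraries except replicate 1 of DKO Foxp3- cells from spleen and pLNs, which had 707 CPM. Plasma cell markers (Sdc1 and the J chain gene) summed to 422 and 485 CPM in replicate 2 of DKO Treg and of DKO Foxp3- cells from mLNs and to 90.5 and 123 CPM in replicate 1 of both DKO groups from spleen and pLNs, against 2.26 to 48.0 CPM in the other libraries. Markers of other cells also moved with genotype. In mLN Treg cells the summed level of NK cell markers (Ncr1, Klrb1c) was 5.21 to 8.19 CPM in WT and 72.4 to 156 CPM in DKO, and that of 6 myeloid markers 2.85 to 4.68 and 14.1 to 24.9 CPM. The CD8 markers (Cd8a, Cd8b1) summed to 16.03 to 20.8 and 2.95 to 3.94 CPM and 5 B cell markers to 26.8 to 35.4 and 8.81 to 20.8 CPM. Treg cells of spleen and pLNs had 6.13 to 7.38 against 88.7 to 113 CPM of NK, 2.69 to 4.66 against 11.9 to 33.0 CPM of myeloid, 17.2 to 19.7 against 6.70 to 9.42 CPM of CD8 and 27.7 to 29.6 against 9.83 to 13.2 CPM of B cell markers. In Foxp3- cells the NK markers were at 6.47 to 12.7 CPM in WT and 30.9 to 136 CPM in DKO in mLNs and at 58.0 to 95.6 and 103 to 211 CPM in spleen and pLNs. Their CD8 markers were at 21.5 to 23.3 CPM in WT and 4.996 to 10.1 CPM in DKO in mLNs and at 14.8 to 17.8 and 5.09 to 11.3 CPM in spleen and pLNs. Their myeloid markers were at 7.02 to 8.68 and 7.63 to 26.2 CPM in mLNs and at 6.99 to 8.04 and 16.7 to 26.7 CPM in spleen and pLNs. Their B cell markers were at 2.39 to 2.70 and 2.39 to 16.3 CPM in mLNs and at 3.54 to 3.57 and 6.15 to 9.10 CPM in spleen and pLNs. The part of these cells in the differences of DKO from WT given below was not tested. Of the 5 B cell markers, 2, 2 and 3 were at 0 in the WT Treg libraries of mLNs and 0 in each DKO Treg library. In spleen and pLNs 2 of them were at 0 in replicate 2 of WT Treg cells and 0 in each DKO Treg library. Some B cell markers of Treg cells thus rose while the sum was lower in DKO. Single myeloid markers, and B cell markers of Foxp3- cells, were at 0 in some libraries of both genotypes. DKO libraries also lay farther from their own group, with a root mean square difference in log2 CPM of 0.334 to 0.593, than WT libraries, at 0.155 to 0.180.

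DNA methylation in mammals is carried by cytosines in CpG pairs. The de novo enzymes DNMT3A and DNMT3B add new methyl groups, and DNMT1 copies the pattern onto the daughter strand after replication, brought to hemimethylated sites by UHRF1. TET1, TET2 and TET3 oxidize 5-methylcytosine, and the products are either lost as cells divide or removed by the glycosylase TDG followed by base excision repair. MBD4 is another glycosylase, which removes mismatched thymine at methylated CpG sites, and GADD45A is a stress-induced adaptor that has been linked to active demethylation. In Treg cells, demethylation of enhancers of Foxp3 and other signature genes is tied to a stable lineage, and the comparison asks how the enzymes on both sides of this balance are expressed when 2 of the 3 TET genes are deleted.

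The maintenance factor Uhrf1 had the lowest adjusted p of the members between DKO and WT cells. In WT Treg cells from mLNs its level was 33.6, 39.9 and 45.3 CPM, and in DKO Treg cells it was 85.7, 108 and 109 CPM. The lowest DKO library was above the highest WT library. The difference was 2.55-fold (log2 fold change 1.35 ± 0.13 SE, adjusted p = 0.000103 by edgeR's quasi-likelihood test), with a 95% interval of the log2 fold change from 1.06 to 1.64. Uhrf1 was the only member of the 10 called in this comparison, that is with an adjusted p of at most 0.05 over all genes tested and a change of at least 1.5-fold. The same rule called 11.9% of the 16784 genes tested, 8.50% with a higher and 3.43% with a lower level in DKO, so that 1 of 10 members is close to that background. Without replicate 2 of DKO Treg cells, the library with plasma cell transcripts, the log2 fold change was 1.30 (adjusted p = 0.000351).

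In CD4+Foxp3- cells from mLNs, Uhrf1 was at 21.8, 22.2 and 21.3 CPM in WT against 32.0, 25.7 and 35.4 CPM in DKO. The groups did not overlap, but the difference of 0.51 ± 0.14 SE in log2 was not called (adjusted p = 0.0650). None of the 10 members was called in this comparison by edgeR, where 3.43% of all genes were (3.12% higher and 0.304% lower in DKO), and DESeq2 called 0. An unadjusted p under 0.05 by edgeR was found for 1 member and for 3138 of the 16784 genes tested. Without replicate 2 of DKO Foxp3- cells, which had the lowest Uhrf1 of its group, the log2 fold change was 0.64 and passed (adjusted p = 0.0175). The genotype effect on Uhrf1 was larger in Treg than in Foxp3- cells by 0.84 ± 0.19 SE on the log2 scale, with an unadjusted p of 0.000801 and an adjusted p of 0.0908 in edgeR's quasi-likelihood test of the interaction, which called 0.280% of all genes and none of the members. Without replicate 2 of DKO Foxp3- cells the difference was 0.69 (adjusted p = 0.0483). In edgeR's test of the interaction 2 members had an unadjusted p under 0.05, Uhrf1 and Dnmt1, as had 1827 of the 16784 genes tested, and DESeq2 called both members.

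**Figure D1:**
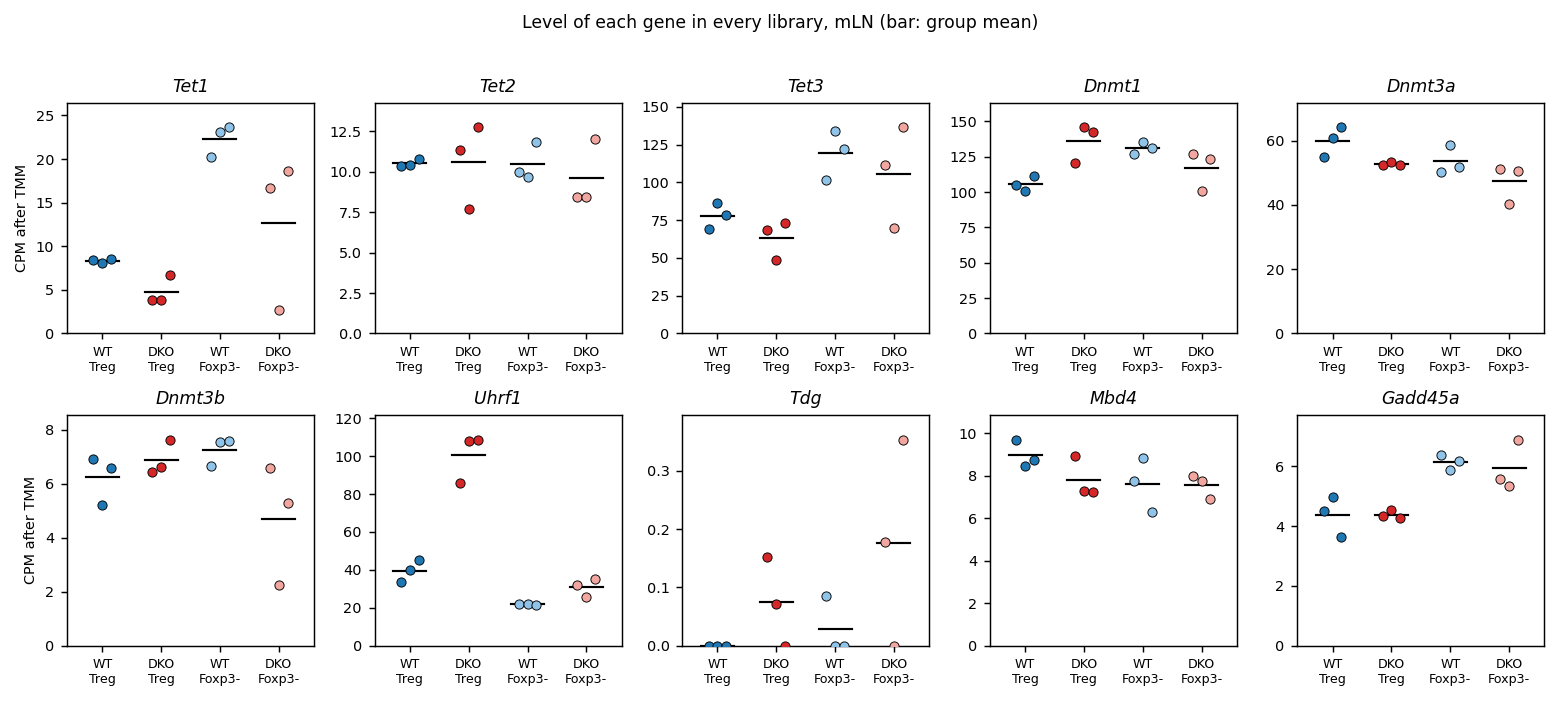
Level of each of the 10 genes in the 12 mLN libraries, in CPM after TMM normalization on a linear axis from 0. Each point is a library, colours mark the 4 groups and the bar is the group mean. Uhrf1 is at 85.7 to 109 CPM in DKO Treg cells, above all other libraries, and Tet1 in replicate 2 of DKO Foxp3- cells lies at 2.67 CPM, apart from the other replicates of its group.

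Dnmt1, the maintenance methyltransferase itself, differed less. Its level in mLN Treg cells was 105, 101 and 111 CPM in WT against 120, 146 and 143 CPM in DKO. The groups did not overlap, and the log2 fold change of 0.37 ± 0.10 SE passed the adjusted p (0.0211, edgeR's quasi-likelihood test) but not the 1.5-fold minimum. The pass was lost without replicate 2 (0.32, adjusted p = 0.0786) or replicate 3 of DKO Treg cells (0.33, adjusted p = 0.0630) and without replicate 1 (0.36, adjusted p = 0.0708) or replicate 2 of WT Treg cells (0.33, adjusted p = 0.0895). In mLN Foxp3- cells the direction was the opposite, with 127, 135 and 131 CPM in WT against 127, 101 and 123 CPM in DKO. The difference of -0.16 ± 0.10 SE in log2 did not pass (adjusted p = 0.412 by edgeR), and it ranged from -0.22 to -0.058 with a library left out. The 2 effects differed by 0.53 ± 0.14 SE on the log2 scale, at an unadjusted p of 0.00231 and an adjusted p of 0.145 in the interaction test.

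The ratio of Uhrf1 to Dnmt1 was set on TPM, which is per length and so allows a comparison between genes. In mLNs it was 0.280 to 0.297 in WT Foxp3- cells, 0.436 to 0.494 in DKO Foxp3- cells, 0.551 to 0.701 in WT Treg cells and 1.23 to 1.32 in DKO Treg cells. The 4 ranges did not overlap, and DKO Treg cells were the group of mLNs in which Uhrf1 TPM exceeded Dnmt1 TPM. The level of Uhrf1 against another gene is uncertain here and in the order of levels, because 29.7% of the 50-base windows of its transcript had an exact copy elsewhere in the genome and none of Dnmt1 had. The ratio in Treg cells of spleen and pLNs was 1.27 and 1.37 in WT and 1.27 (replicate 1) and 1.81 (replicate 2) in DKO, while WT Foxp3- cells were at 0.551 and 0.578 and DKO Foxp3- cells at 1.98 (replicate 1) and 0.765 (replicate 2).

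The order of the members by TPM was set in each group. In WT Treg cells of mLNs, Dnmt1 was the highest at 29.3 to 33.1 TPM, followed by Uhrf1 (16.2 to 23.2), Tet3 (11.2 to 14.6), Dnmt3a (9.73 to 12.1), Gadd45a (5.58 to 7.45), Mbd4 (4.32 to 4.77), Dnmt3b (2.21 to 2.86), Tet2 (1.99 to 2.21), Tet1 (1.05 to 1.14) and Tdg (listed at 0). Of these neighbours Tet3 and Dnmt3a overlapped. In DKO Treg cells Uhrf1 came first at 50.3 to 60.8 TPM, above Dnmt1 at 40.9 to 46.2 TPM, while Tet3 (8.86 to 13.7) and Dnmt3a (10.7 to 11.3) again overlapped. In Foxp3- cells of mLNs, Dnmt1 was above Uhrf1 in every library, with 32.8 to 36.7 against 9.73 to 10.4 TPM in WT and 29.0 to 35.9 against 12.7 to 17.8 TPM in DKO.

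Because both genes are used in S phase, genes of the cell cycle are given beside them. In mLN Treg cells, 14 of 16 replication genes (such as Mcm2 to Mcm7, the subunits of the replicative helicase) and 10 of 10 mitosis genes (such as Mki67 and Top2a) were called as higher in DKO, with median log2 fold changes of 0.98 and 1.56 against 0.00 for all genes tested. Summed over the list, the replication genes were at 1071 to 1132 CPM in WT and 1821 to 2206 CPM in DKO Treg cells, and at 860.5 to 871 CPM in WT and 988 to 1121 CPM in DKO Foxp3- cells. The 3 DKO Treg libraries that had the highest replication sums also had the highest Uhrf1, and WT Foxp3- libraries had the lowest of both. Dnmt1 had no such order, since WT Foxp3- libraries with low replication sums had 127 to 135 CPM of Dnmt1. In Foxp3- cells 3 of 16 replication and 7 of 10 mitosis genes were called as higher in DKO. For Treg cells of spleen and pLNs edgeR called 0 of 16 replication and 1 of 10 mitosis genes as higher in DKO. Of these lists 9 and 9 genes had an unadjusted p under 0.05 by edgeR, as had 3345 of all 16357 genes tested. DESeq2 called 0 and 3, and the median log2 fold changes were 0.52 and 1.16. For Foxp3- cells of that tissue edgeR called 0 of 16 and 0 of 10. There 14 and 9 genes had an unadjusted p under 0.05, as had 2102 of all genes, DESeq2 called 1 and 3, and the medians were 0.62 and 1.22. The part of cycling cells in the levels of Uhrf1 and Dnmt1 was not tested, and in bulk samples more cells that express a gene and more RNA per cell cannot be told apart.

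**Figure D2:**
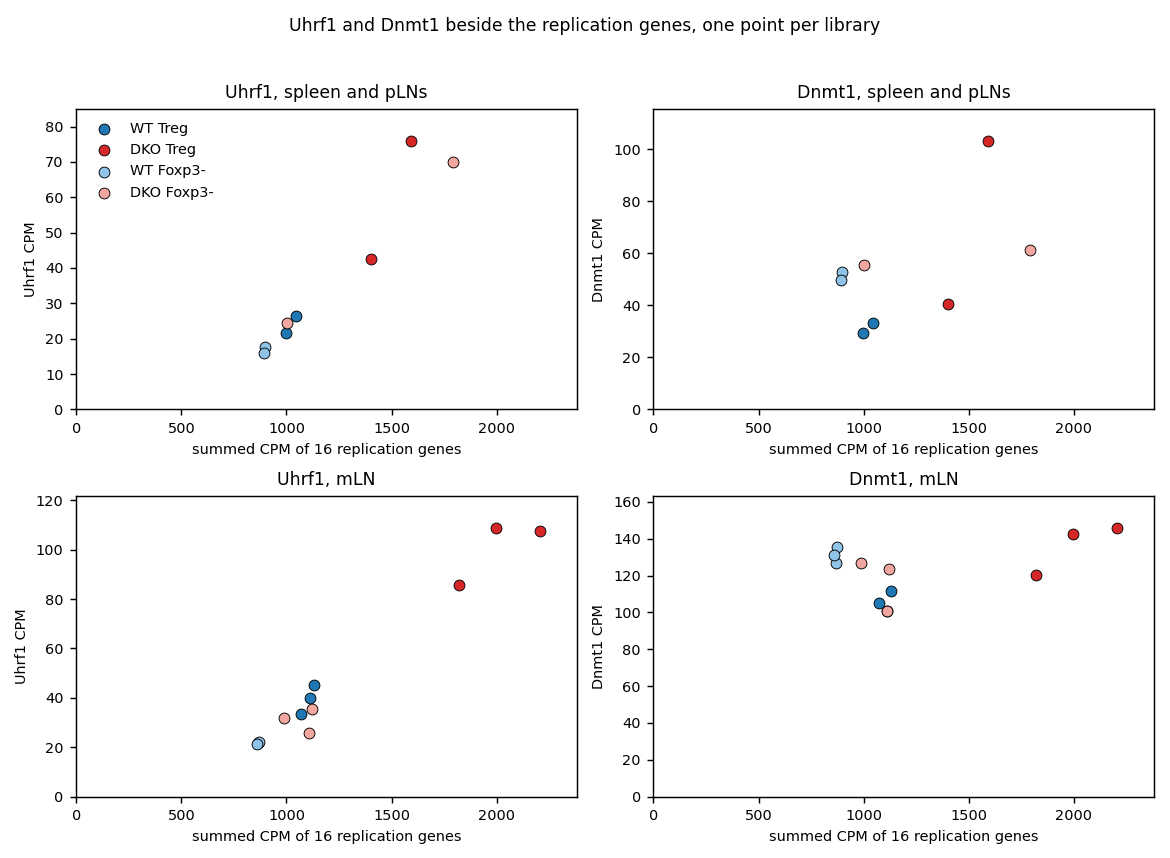
Uhrf1 and Dnmt1 in CPM (vertical axes) against the summed CPM of 16 replication genes (horizontal axes) in the same library, for spleen and pLNs (top) and mLNs (bottom). Each point is a library, with axes that start at 0 and differ between panels in height. In mLNs the DKO Treg points lie at the upper right for Uhrf1, with sums of 1821 to 2206 CPM, while Dnmt1 is at 101 to 146 CPM across all sums.

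By a fixed measure of likeness, the root mean square difference of centred log2 CPM over the 12 mLN libraries among 8410 genes whose mean reached 10 CPM, the genes most like Uhrf1 were Rrm2 (0.139), Fignl1 (0.145) and Kntc1 (0.154). Rrm2, a subunit of ribonucleotide reductase, is itself on the replication list.

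The promoters of Uhrf1 and Dnmt1 are shown because these members had higher counts in DKO Treg cells of mLNs together with the replication genes, many of which are known targets of E2F factors. RefSeq windows of 300 bases (250 before to 50 after a transcription start, assembly GRCm38.p6) were searched on both strands for 4 spellings of the E2F motif, TTTCGCGC, TTTGGCGC, TTTCCCGC and TTTGCCGC. All 10 members had at least 1 window, 15 in all. The 250 bases before 1 listed start are printed 5′ to 3′ on the gene's strand, with matches in capitals, from Uhrf1 at chr17:56304063-56304312 (plus strand) and Dnmt1 at chr9:20952624-20952873 (minus strand). Each stretch precedes the most downstream listed start of its gene and lies downstream of the gene's other listed starts, whose windows held no match. Transcripts from those other starts may therefore include bases of the printed stretch, and positions are counted from the most downstream start alone.
Uhrf1: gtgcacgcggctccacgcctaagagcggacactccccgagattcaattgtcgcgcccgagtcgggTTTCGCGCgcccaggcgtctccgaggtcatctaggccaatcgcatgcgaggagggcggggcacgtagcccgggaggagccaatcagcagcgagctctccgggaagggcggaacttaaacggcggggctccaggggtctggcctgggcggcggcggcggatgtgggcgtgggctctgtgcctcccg
Dnmt1: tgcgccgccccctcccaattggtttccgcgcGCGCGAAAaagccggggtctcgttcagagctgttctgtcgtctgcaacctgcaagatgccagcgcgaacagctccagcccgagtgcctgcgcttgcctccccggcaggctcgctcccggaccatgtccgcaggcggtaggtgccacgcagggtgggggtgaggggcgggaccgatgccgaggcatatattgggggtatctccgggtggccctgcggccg
Uhrf1 held TTTCGCGC at -185 to -178 on the plus strand, counted from the base before the start, in the second of its 2 windows. Dnmt1 held the same letters at -219 to -212 on the opposite strand, in the third of its 3 windows, and TTTGGCGC at 34 to 41 after the start. None of the 4 spellings occurred in the windows of the other 8 members. Of all 32851 windows, 2.26% held at least 1 of them and 0.323% held TTTCGCGC, and among 13 replication genes with a window 6 held at least 1, as did 1 of 9 mitosis genes. A match is a stretch of letters and no measurement of binding.

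The same genes were less even in spleen and pLNs. Uhrf1 was at 26.3 and 21.6 CPM in WT Treg cells and at 75.9 (replicate 1) and 42.7 CPM (replicate 2) in DKO Treg cells. Every DKO library was above every WT library, and the log2 fold change was 1.31 ± 0.38 SE (adjusted p = 0.0950). In Foxp3- cells Uhrf1 was at 17.7 and 15.8 CPM in WT and at 70.1 (replicate 1) and 24.5 CPM (replicate 2) in DKO, a log2 fold change of 1.498 ± 0.39 SE (adjusted p = 0.106). The genotype effect on Uhrf1 was here smaller in Treg than in Foxp3- cells, by -0.19 ± 0.55 SE on the log2 scale with a 95% interval from -1.38 to 1.003 (adjusted p = 0.9998). The sign turned without replicate 2 of DKO Treg cells (0.16) or replicate 1 of DKO Foxp3- cells (0.76). Dnmt1 was at 33.0 and 29.2 CPM in WT Treg cells and at 103 (replicate 1) and 40.7 CPM (replicate 2) in DKO Treg cells, a log2 fold change of 1.21 ± 0.31 SE (adjusted p = 0.0702). In Foxp3- cells Dnmt1 was at 52.9 and 49.6 CPM in WT and at 61.2 (replicate 1) and 55.3 CPM (replicate 2) in DKO. Replicate 1 was thus far above replicate 2 for Uhrf1 in both DKO groups and for Dnmt1 in DKO Treg cells, and little above it for Dnmt1 in DKO Foxp3- cells. The replication sums of replicates 1 and 2 were 1593 and 1400 CPM in DKO Treg and 1793 and 1002 CPM in DKO Foxp3- cells, against 892 to 1043 CPM in WT. The unequal disease of the DKO littermates cannot be told apart from the gap between their replicates, and the labels do not say whether a number marks the same mouse in both cell types. None of the 10 members was called between DKO and WT Treg cells of spleen and pLNs by edgeR, and DESeq2 called 2. The rule in edgeR called 1.74% of the 16357 genes tested (1.14% as higher, 0.605% as lower). An unadjusted p under 0.05 by edgeR was found for 5 members and for 3345 of all genes. No member was called in Foxp3- cells by edgeR, where 0.819% of genes were (0.770% higher and 0.0489% lower), and DESeq2 called 1. There 2 members and 2102 of all genes had an unadjusted p under 0.05 by edgeR.

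These values depend on replicate 1. Without replicate 1 of DKO Treg cells, the log2 fold changes in Treg cells were 0.83 for Uhrf1 (adjusted p = 0.722), 0.38 for Dnmt1 (0.542) and 0.68 for Dnmt3a (0.596). Without replicate 2 instead, the log2 fold changes were 1.66 for Uhrf1, 1.73 for Dnmt1 and 1.72 for Dnmt3a. Without either replicate of DKO Foxp3- cells, which enters only the shared estimate of spread, they were 1.31, 1.21 and 1.29. Without replicate 1 of DKO Foxp3- cells, Uhrf1 in Foxp3- cells differed by 0.54 (adjusted p = 1), and without replicate 2 by 2.06 (adjusted p = 0.000105), each against a lone DKO library.

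**Figure D3:**
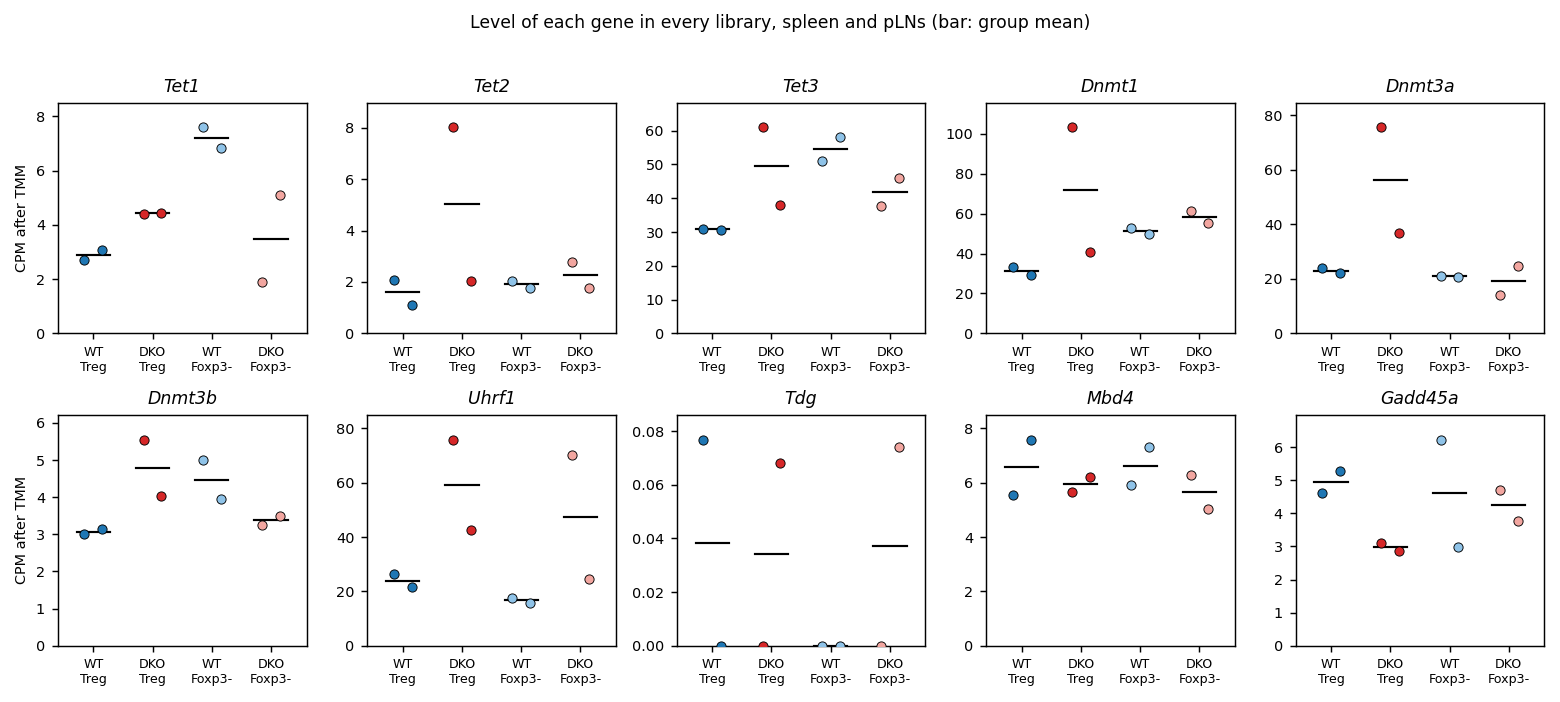
Level of each of the 10 genes in the 8 libraries of spleen and pLNs, in CPM after TMM normalization on a linear axis from 0. Each point is a library and the bar is the group mean. In DKO Treg cells replicate 1 is above replicate 2 for Tet2, Tet3, Dnmt1, Dnmt3a, Dnmt3b and Uhrf1, for Dnmt1 at 103 against 40.7 CPM.

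Of the de novo methyltransferases, Dnmt3a was the more abundant. In mLN Treg cells Dnmt3a was at 54.9, 60.7 and 64.1 CPM in WT against 52.5, 53.4 and 52.4 CPM in DKO. The groups did not overlap, with a log2 fold change of -0.18 ± 0.10 SE that did not pass (adjusted p = 0.246). In Treg cells of spleen and pLNs the direction was the opposite, from 23.9 and 22.0 CPM in WT to 75.6 (replicate 1) and 36.7 CPM (replicate 2) in DKO, a log2 fold change of 1.29 ± 0.31 SE (adjusted p = 0.0599). Foxp3- cells of the same tissue had 21.1 and 20.8 CPM (WT) against 14.0 and 24.6 CPM (DKO), and the groups overlapped. Dnmt3b was low in every group, between 2.25 and 7.63 CPM in all 20 libraries, and its differences of DKO from WT reached 0.64 ± 0.34 SE in log2 in Treg cells of spleen and pLNs (adjusted p = 0.314) and -0.64 ± 0.30 SE in mLN Foxp3- cells (adjusted p = 0.271), where replicate 2 of DKO had 2.25 CPM and the other 2 DKO libraries 6.56 and 5.30 CPM. Without that library the log2 fold change was -0.28 (adjusted p = 0.677), and without replicate 1 of DKO Treg cells the change in spleen and pLNs was 0.39 (adjusted p = 0.851). On the TPM scale, Dnmt3a exceeded Dnmt3b in all 20 libraries, by a ratio of 1.85 to 7.78.

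For the targeted genes Tet2 and Tet3, no difference in total counts between DKO and WT Treg cells passed the test with all libraries. In mLNs, Tet2 was at 10.4, 10.4 and 10.8 CPM in WT Treg cells and at 11.4, 7.69 and 12.8 CPM in DKO Treg cells. The groups overlapped, and the log2 fold change was 0.01 ± 0.20 SE, with a 95% interval from -0.42 to 0.44. Tet3 was at 69.0, 86.5 and 78.2 CPM in WT against 68.5, 48.4 and 73.3 CPM in DKO Treg cells, also overlapping. Its log2 fold change was -0.30 ± 0.21 SE (adjusted p = 0.368 by edgeR's quasi-likelihood test), and -0.42 to -0.14 with a library left out. In spleen and pLNs, Tet2 was at 2.08 and 1.11 CPM in WT Treg cells and at 8.01 (replicate 1) and 2.05 CPM (replicate 2) in DKO, and WT libraries had 31.0 and 30.6 CPM of Tet3 against 61.0 (replicate 1) and 38.1 CPM (replicate 2) in DKO. The log2 fold changes were 1.66 ± 0.59 SE for Tet2 (adjusted p = 0.144) and 0.69 ± 0.21 SE for Tet3 (adjusted p = 0.101), and without replicate 1 of DKO Treg cells they were 0.36 (adjusted p = 0.880) and 0.31 (adjusted p = 0.682). Without replicate 2 both genes were called, Tet2 at 2.33 (adjusted p = 0.0259) and Tet3 at 0.98 (adjusted p = 0.00933). Both were also called without replicate 1 (adjusted p of 0.0424 and 0.0266) or replicate 2 of DKO Foxp3- cells (0.0493 and 0.0309). The tables count reads over whole genes, so reads from transcripts that lack the floxed exons are counted with the rest, and these totals do not check the deletion.

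In Foxp3- cells, Tet2 in mLNs was at 9.96, 9.65 and 11.9 CPM for WT and 8.43, 8.44 and 12.02 CPM for DKO, while the WT libraries had 101, 134 and 122 CPM of Tet3 and the DKO libraries 111, 69.7 and 136 CPM. Both overlapped between genotypes, with adjusted p of 0.798 and 0.692 by edgeR's quasi-likelihood test. Foxp3- cells of spleen and pLNs had 2.05 and 1.77 CPM of Tet2 in WT against 2.76 and 1.78 CPM in DKO (log2 fold change 0.25 ± 0.60 SE, adjusted p = 0.939). Their Tet3 was at 50.9 and 58.1 CPM in WT and lower in both DKO libraries, at 37.7 and 45.9 CPM (-0.38 ± 0.21 SE, adjusted p = 0.487). The genotype effects on Tet3 in the 2 cell types of spleen and pLNs differed by 1.07 on the log2 scale, with the lowest unadjusted p of the members in that interaction test (0.00352, adjusted p = 0.694). That difference passed without replicate 2 of DKO Treg cells (1.36, adjusted p = 0.0251) and without replicate 2 of DKO Foxp3- cells (1.22, adjusted p = 0.0425).

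Tet1, the TET gene left intact, had a lower mean in DKO than in WT in 3 of the 4 comparisons and a higher one in the remaining comparison, and none passed. In mLN Treg cells it was at 8.46, 8.02 and 8.56 CPM in WT against 3.82, 3.81 and 6.71 CPM in DKO. Every DKO library was below every WT library, with a log2 fold change of -0.81 ± 0.49 SE (adjusted p = 0.284). In mLN Foxp3- cells it was at 20.3, 23.1 and 23.6 CPM in WT against 16.7, 2.67 and 18.6 CPM in DKO, where replicate 2, the library with the most plasma cell transcripts, was the low one. That log2 fold change was -0.83 ± 0.45 SE (adjusted p = 0.360), and -0.33 without replicate 2 (adjusted p = 0.556). In fits without this library, which shares in the estimate of spread, the change in mLN Treg cells was -0.83 at an adjusted p of 0.00413. Tet1 in spleen and pLNs was at 7.60 and 6.83 CPM in WT Foxp3- cells and 1.88 and 5.11 CPM in DKO (log2 fold change -1.05 ± 0.41 SE, adjusted p = 0.297; -0.50, adjusted p = 1, without replicate 1 and -1.93, adjusted p = 0.00135, without replicate 2 of DKO Foxp3- cells), but at 2.69 and 3.06 CPM in WT Treg cells and 4.41 and 4.44 CPM in DKO Treg cells (0.62 ± 0.42 SE, adjusted p = 0.448). The genotype effects in the 2 cell types of spleen and pLNs differed by 1.67 ± 0.59 SE on the log2 scale (unadjusted p = 0.0156, adjusted p = 0.902 by edgeR's quasi-likelihood test), and by 2.55 (adjusted p = 0.00396) without replicate 2 of DKO Foxp3- cells. None of the members was called in edgeR's interaction test of spleen and pLNs, in which 0.00611% of all genes were, and DESeq2 called 0. An unadjusted p under 0.05 by edgeR was found for 5 members and for 905 of the 16357 genes tested. By the measure of likeness given above, the genes most like Tet1 over the mLN libraries were Prkd3 (0.191), Gm15708 (0.262) and Sgk3 (0.275).

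Set on TPM, Tet3 made up most of the TET transcripts in every library, between 78.3% and 89.2% of the sum of the 3 genes. In DKO cells these values can include transcripts that lack the floxed exons, so they do not show which TET enzymes remain. Tet1 held 10.9% to 12.2% in WT Foxp3- cells of mLNs, 5.91% to 7.46% in WT Treg cells and 3.48% to 5.55% in DKO Treg cells, 3 ranges that did not overlap. In the DKO Foxp3- group replicate 2 was at 2.53% and the other libraries reached 9.61%. Tet2 held 7.02% to 9.18% in WT Foxp3- cells of mLNs, 11.8% to 14.0% in WT Treg cells and 15.1% to 16.2% in DKO Treg cells, while DKO Foxp3- cells, at 7.45%, 12.3% and 8.65%, overlapped both WT groups. Tet2 was 3.20% to 12.9% of the sum in spleen and pLNs, and its groups overlapped between genotypes in Treg cells (3.86% and 6.94% in WT, 12.9% and 5.53% in DKO). The summed TET TPM was 14.2 to 17.7 in WT and 11.1 to 17.5 in DKO Treg cells of mLNs.

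**Figure D4:**
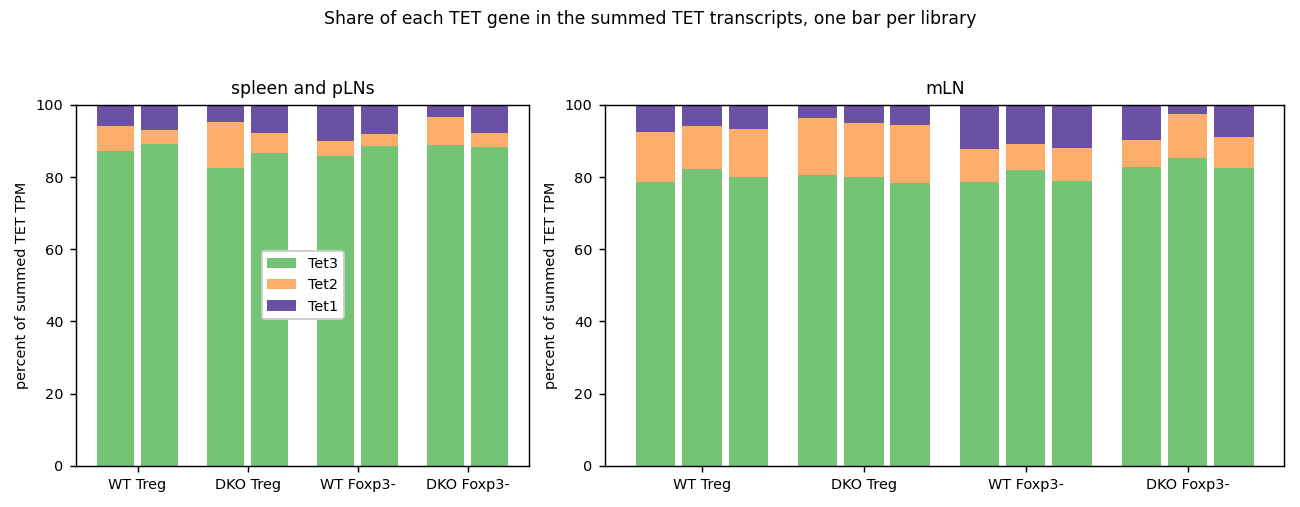
Tet1, Tet2 and Tet3 as a percent of their summed TPM (vertical axis, 0 to 100%), with 1 stacked bar for each library, grouped by genotype and cell type. Tet3 takes 78.3% to 89.2% of every bar, and the Tet1 segment is the widest in WT Foxp3- cells of mLNs, at 10.9% to 12.2%. In DKO the Tet2 and Tet3 segments can include transcripts that lack the floxed exons.

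Compared between cell types of the same genotype, Uhrf1 was higher in Treg than in Foxp3- cells of mLNs in both genotypes. In WT, Uhrf1 was 1.81-fold higher in Treg cells (log2 fold change 0.86 ± 0.14 SE, adjusted p = 0.00114 by edgeR's quasi-likelihood test), and in DKO 3.25-fold higher (1.70 ± 0.13 SE, adjusted p = 1.03e-05). Uhrf1 was the 1 member called in WT, where 10.1% of all genes were. In DKO, where 11.2% of all genes were called, the 2 members called were Uhrf1 and Tet3, the latter lower in Treg cells with a log2 fold change of -0.74 ± 0.21 SE (adjusted p = 0.0293). The Tet3 libraries of the 2 DKO cell types overlapped, since replicate 2 of DKO Foxp3- cells had 69.7 CPM and replicate 3 of DKO Treg cells 73.3 CPM, and the call was lost without replicate 2 of DKO Treg cells (-0.58, adjusted p = 0.112) and without replicate 1 (-0.72, adjusted p = 0.0538) or replicate 3 of DKO Foxp3- cells (-0.51, adjusted p = 0.131), and with the 2 groups compared alone (-0.77, adjusted p = 0.124). DESeq2 called 3 members, Tet1 among them. Tet1 was at 3.82, 3.81 and 6.71 CPM in DKO Treg and 16.7, 2.67 and 18.6 CPM in DKO Foxp3- cells, a log2 difference of -1.399 ± 0.48 SE (adjusted p = 0.0658 by edgeR, 0.0249 by DESeq2). The groups overlapped through replicate 2 of DKO Foxp3- cells, without which the difference was -1.93 (adjusted p = 6.11e-06 by edgeR). Same-numbered DKO libraries of mLNs deviated together for replicates 2 and 3 (correlations of 0.351 and 0.360) and less for replicate 1 (0.0841). With either replicate block Uhrf1 and Tet3 stayed called and Tet1 was not called.

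In WT cells of mLNs, Tet1, Tet3 and Dnmt1 were not called, at adjusted p of 0.0520 to 0.0707. Their Treg and Foxp3- libraries did not overlap, nor did those of Gadd45a, and the share of all genes without overlap was not counted. An unadjusted p under 0.05 by edgeR was found for 5 of 9 members and for 4539 of the 16784 genes tested. Tet1 was lower in Treg cells with a log2 fold change of -1.42 ± 0.46 SE (adjusted p = 0.0587), Tet3 with -0.61 ± 0.21 SE (adjusted p = 0.0707) and Dnmt1 with -0.31 ± 0.10 SE (adjusted p = 0.0520). The same-numbered WT Treg and WT Foxp3- libraries of mLNs deviated together (correlations of 0.129, 0.131 and 0.147), and with the replicate number as a block Tet1 was called (-1.44, adjusted p = 0.0479). With the block within genotype Tet1 (-1.42, adjusted p = 0.0241) and Tet3 (-0.61, adjusted p = 0.00107) were called, while Dnmt1 had adjusted p of 0.0577 and 0.0750 in the 2 blocked fits. Without replicate 2 of DKO Foxp3- cells, Tet1 had an adjusted p of 2.49e-05 and Tet3 of 0.00536 in this comparison by edgeR's quasi-likelihood test. Gadd45a had a log2 difference of -0.49 ± 0.19 SE (adjusted p = 0.109), at 3.64 to 4.96 CPM in WT Treg cells and 5.87 to 6.38 CPM in WT Foxp3- cells.

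None of the members from spleen and pLNs was called between WT Treg and WT Foxp3- cells by edgeR, where 4.0% of all genes were, and DESeq2 called 1. An unadjusted p under 0.05 by edgeR was found for 3 members and for 2243 of the 16357 genes tested. Tet3 had the lowest adjusted p (0.0512), with 31.0 and 30.6 CPM in Treg and 50.9 and 58.1 CPM in Foxp3- cells and a log2 difference of -0.82 ± 0.21 SE, and it was called when any 1 of the 4 DKO libraries was left out (adjusted p of 0.0107 to 0.0164). In DKO, where 3.77% of all genes were called, the 1 member called was Dnmt3a, at 75.6 and 36.7 CPM in Treg cells against 14.0 and 24.6 CPM in Foxp3- cells (log2 difference 1.55 ± 0.31 SE, adjusted p = 0.0163). Both cell types came from the same littermates, and their same-numbered DKO libraries deviated together (correlation of 0.327). With the replicate number as a block the call was lost (1.52, adjusted p = 0.0660), as it was with the block within genotype (1.503, adjusted p = 0.175). The call also rested on replicate 1 of DKO Treg cells, without which the log2 difference was 0.93 (adjusted p = 0.227), and it was also lost when any 1 of the 4 WT libraries was left out, at adjusted p of 0.0520 to 0.0592.

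**Figure D5:**
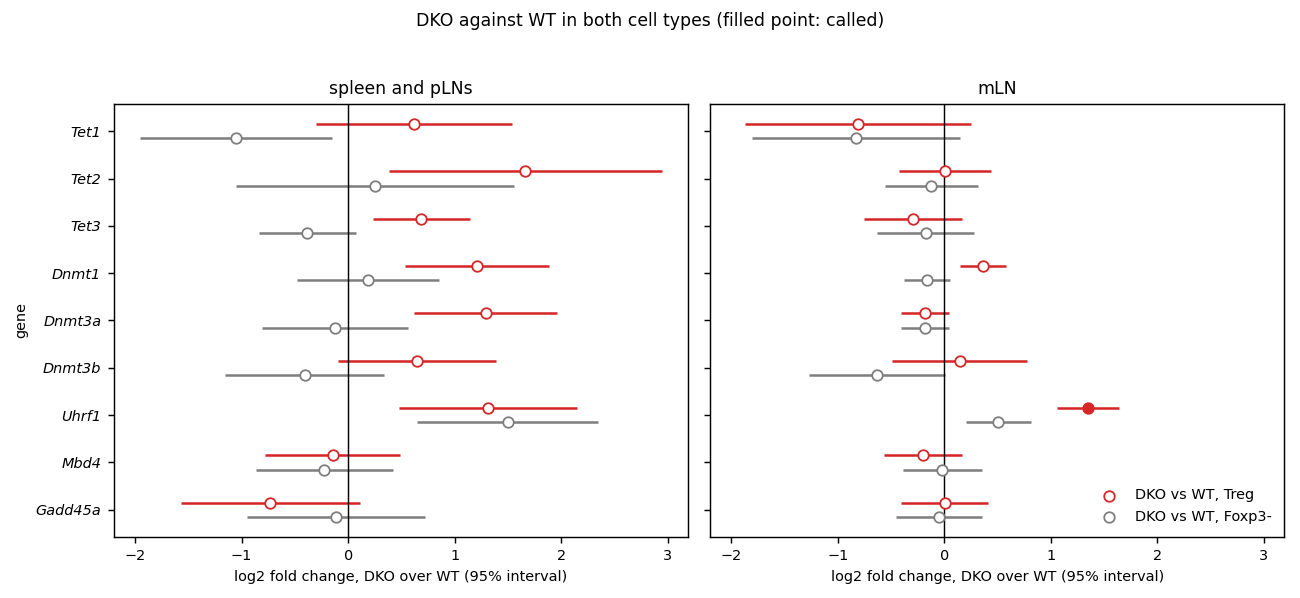
Log2 fold change of DKO over WT (horizontal axis) for 9 members in Treg cells (red) and Foxp3- cells (grey), with 95% intervals, in spleen and pLNs (left) and mLNs (right). Filled points passed the adjusted p and the 1.5-fold minimum, and Uhrf1 in mLN Treg cells at 1.35 is the filled point. Tdg is left out because its counts are at the floor.

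Of the members of the removal step, Mbd4 was at 5.04 to 9.70 CPM and Gadd45a at 2.87 to 6.89 CPM over the 20 libraries, and neither passed in any of the 4 comparisons of DKO with WT. The largest of these was Gadd45a in Treg cells of spleen and pLNs, from 4.61 and 5.29 CPM in WT to 3.09 and 2.87 CPM in DKO (log2 fold change -0.73 ± 0.39 SE, adjusted p = 0.313). In mLN Treg cells the 95% intervals of the log2 fold change were -0.57 to 0.17 for Mbd4 and -0.41 to 0.41 for Gadd45a. Tdg had 0 to 4 counts in every library, at or close to the floor of 3 counts, and no fold change is given for it. Of 50-base windows along its transcript in NCBIM37 (chr10:82092573-82113544, plus strand), 79.0% had an exact copy elsewhere in that genome, at 4 further loci, so its counts are uncertain and do not show a low level of the transcript. The same share was 29.7% for Uhrf1 (chr17:56442744-56462909, plus strand), with copies at 2 further loci, 8.05% for Dnmt3b, 3.14% for Mbd4 and under 1% for the other members, and 0 for Dnmt1, Dnmt3a and Gadd45a.

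Over the 9 members other than Tdg, the median log2 fold change of DKO over WT in Treg cells was 0.69 in spleen and pLNs and 0.00 in mLNs, against 0.01 and 0.00 for all genes with a mean level above the floor. Without replicate 1 of DKO Treg cells the median in spleen and pLNs was 0.38, and without replicate 2 it was 0.98. The median in mLN Treg cells was -0.14 without replicate 3 of DKO Treg cells and -0.11 without replicate 3 of WT Treg cells. In Foxp3- cells the medians were -0.12 and -0.16, against 0.00 and 0.01. Without replicate 1 of DKO Foxp3- cells the median in spleen and pLNs was -0.25, and without replicate 2 the medians were -0.075 there and -0.033 in mLNs.

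The genes around the members were followed in 6 lists of partners with 52 genes, of which 51 were measured in mLNs. In mLN Treg cells 7 partners rose and 1 fell in DKO, and 43 were not called. These 8 are 15.7% of the partners, near the 11.9% of all genes called (8.50% higher and 3.43% lower in DKO). The risen ones included 2 of 7 methylation partners, the chromatin remodeler Hells (26.2 CPM in WT against 54.9 CPM in DKO, log2 fold change 1.07, adjusted p = 0.00013) and its activator Cdca7 (43.2 and 66.2 CPM, 0.62, adjusted p = 0.00257). They also included 4 of 14 base excision repair genes, the glycosylases Ung (13.7 and 25.4 CPM, 0.89), Neil1 (9.78 and 15.7 CPM, 0.68) and Neil3 (1.79 and 5.93 CPM, 1.73) and the DNA ligase Lig1 (51.8 and 105 CPM, 1.01). Of the TET partners and cofactor enzymes 1 of 6 rose, Cxxc5, a CXXC zinc finger protein (6.44 and 28.1 CPM, log2 fold change 2.12, adjusted p = 0.00125), and of the Gadd45 relatives and deaminases 1 of 6 fell, Apobec2, a member of the cytidine deaminase family (4.23 and 1.03 CPM, -2.03, adjusted p = 0.00486). No methyl-CpG reader (0 of 8) and no gene of the methyl donor cycle (0 of 10) was called by edgeR's quasi-likelihood test in this comparison. The partners' median log2 fold change was 0.06, against 0.00 for all genes. Hells, Ung and Lig1 are also used in replicating cells, and the values of the cycling lists given above move with them.

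In mLN Foxp3- cells 0 of 51 partners were called by edgeR, against 3.43% of all genes, and DESeq2 called 2. An unadjusted p under 0.05 by edgeR was found for 14 partners and for 3138 of the 16784 genes tested. In Treg cells of spleen and pLNs 2 of 50 partners were called, both lower in DKO, against 1.74% of all genes called and 0.605% called as lower. They were Apobec2 (8.16 CPM in WT against 1.003 CPM in DKO, log2 fold change -3.03, adjusted p = 0.0131) and Ogt, the O-GlcNAc transferase that binds TET proteins (134 and 85.1 CPM, -0.66, adjusted p = 0.0488), and both calls were lost without replicate 1 of DKO Treg cells or without either WT Treg library. In Foxp3- cells of spleen and pLNs 0 of 50 were called by edgeR, against 0.819% of all genes, and DESeq2 called 0. There 7 partners and 2102 of the 16357 genes tested had an unadjusted p under 0.05 by edgeR. Apobec2 was thus the partner called in Treg cells of both tissues.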

How the data were processed

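RNA sequencing of 20 sorted samples was used, 8 from spleen and pLNs and 12 from mLNs. Alignment was done by the authors with TopHat2 2.1.1 against mm9, with no more than 1 alignment kept for a read, and strand-aware counting per RefSeq gene with featureCounts of Subread 1.4.3-p1. The deposited counts were not normalized by the authors. How the authors calculated the deposited TPM is not given in the sources used here.

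Counts were normalized with TMM and tested with edgeR 4.0.16 (limma 3.58.1, R 4.3.3) on genes with at least 1 count in total, in one fit per tissue that holds its 4 groups and no replicate block. The p-values were adjusted by the Benjamini-Hochberg method over all genes. A call needed an adjusted p up to 0.05 together with a 1.5-fold change (for the interaction, the adjusted p alone). Tissues were normalized and tested separately. Biological coefficients of variation were 21.6% and 17.7%. Intervals use the moderated degrees of freedom. Scripts were tested on simulated data.

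The named genes are every member, partners called in a DKO against WT comparison (at most the 4 with the largest change of each list), and the 3 genes most like a member whose mLN group means spanned at least 1 in log2 CPM (prior count 2). The members and lists were chosen with earlier results of these data known. Over all libraries the CD4 T cell markers summed to 3187 to 5724 CPM and the erythroid markers to 0 to 0.251 CPM. Alternatives were DESeq2's size factors, DESeq2 1.42.0, filterByExpr, 2 replicate blocks, no fold minimum, the 2 groups compared alone, leaving out each library, and CPM in place of TPM. The share of all genes called was not counted for the alternatives, so their numbers of members and partners called have no background. The labels do not say that a number marks a mouse. In mLNs every correlation of same-numbered Treg and Foxp3- samples was over 0.1 in WT. In DKO replicates 2 and 3 were at 0.351 and 0.360 and replicate 1 at 0.0841, so blocked results stand beside both comparisons there.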

Additional observations from a re-analysis of the deposited data

Results flagged for a closer look

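Tet1 and Dnmt3a had every DKO Treg library on one side of every WT Treg library in spleen and pLNs and on the other side in mLNs. How many of all genes did the same was not counted, so it is not known whether this is rare. For Tet1 the log2 fold change of DKO over WT was 0.62 in spleen and pLNs and -0.81 in mLNs, and for Dnmt3a it was 1.29 and -0.18. None of these 4 changes passed in its own tissue, and the difference between tissues was not tested, since the tables were normalized separately. In spleen and pLNs the change of Dnmt3a without replicate 1 of DKO Treg cells was 0.68.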

How the results depend on the processing

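Over 90 log2 fold changes of 9 members (Tdg has none) and 1386 alternative values of them, 1244 kept their direction and their side of the threshold, 63 passed where they had not, 13 no longer passed and 66 changed sign, each of these 66 for an effect that had not passed. Uhrf1 in mLNs was called under every alternative in Treg cells between DKO and WT (log2 fold change 1.24 to 1.45, highest adjusted p 0.00116) and between Treg and Foxp3- cells in WT (0.75 to 0.96, highest 0.00822) and in DKO (1.55 to 1.81, highest 0.00516). The cause of the changes below was not tested.

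The number of members called in spleen and pLNs between DKO and WT Treg cells was 2 with DESeq2 and 3 with the 2 groups compared alone, and in Foxp3- cells it was 1 with DESeq2. Between WT Treg and Foxp3- cells it was 1 with DESeq2's size factors, 1 with DESeq2 and 3 with the 2 groups alone, and in DKO it was 0 with filterByExpr, with the 2 groups alone, with the replicate block and with the replicate block within genotype. In mLNs it was 2 in DKO against WT Treg cells with no fold minimum and with the 2 groups alone, 3 between the WT cell types with DESeq2 and with the 2 groups alone, 1 between the DKO cell types with the 2 groups alone, and 2 for the interaction with DESeq2. With the replicate block 2 members were called between the WT cell types of mLNs, and 3 with the block within genotype. The number of partners called in Treg cells of spleen and pLNs was 1 with DESeq2's size factors, 0 with filterByExpr, 1 with the replicate block and 6 with the 2 groups alone. In mLNs it was 16 in Treg cells with no fold minimum, and in Foxp3- cells 2 with DESeq2 and 1 with no fold minimum. Same-numbered Treg and Foxp3- libraries of mLNs deviated from their group means with correlations of 0.129, 0.131 and 0.147 in WT and 0.0841, 0.351 and 0.360 in DKO. Different-numbered libraries were at -0.0839 to -0.0453 in WT and at -0.344 to 0.159 in DKO. The deviations thus went together less for replicate 1 than for replicates 2 and 3 of DKO, and the labels do not settle the pairing.

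Leaving out each library in turn gave 0 to 5 members in DKO against WT Treg cells of spleen and pLNs (0 without replicate 1 of DKO Treg cells, 4 without replicate 2 and 5 without either DKO Foxp3- library) and 0 to 2 in Foxp3- cells (2 without replicate 2 of DKO Foxp3- cells). It gave 0 to 2 between the WT cell types (2 without any of the DKO libraries), 0 to 2 between the DKO cell types and 0 to 3 for the interaction (2 without replicate 2 of DKO Treg and 3 without replicate 2 of DKO Foxp3- cells). A lone library left in a group was assumed to vary like the others. How many of all genes were called in each of these refits was not counted, so the numbers of members and partners have no background. In mLNs it gave 1 to 2 members in Treg cells and 0 to 1 in Foxp3- cells and in the interaction, in each case with the higher count without replicate 2 of DKO Foxp3- cells, 1 to 3 between the WT cell types (3 without that library) and 1 to 3 between the DKO cell types. Partners numbered 0 to 9 in Treg cells of spleen and pLNs (8 without replicate 2 of DKO Treg cells, 9 and 7 without replicates 1 and 2 of DKO Foxp3- cells), 0 to 10 in Foxp3- cells (10 without replicate 2 of DKO Foxp3- cells) and 0 to 2 in mLN Foxp3- cells (2 without replicate 1 of DKO Foxp3- cells).

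Effects that changed sign when a library was left out had these ranges of log2 fold change. In spleen and pLNs they were Mbd4 (-0.35 to 0.10) in DKO against WT Treg cells, Tet2 (-0.11 to 0.53), Dnmt3a (-0.58 to 0.23) and Gadd45a (-0.55 to 0.51) in Foxp3- cells, Tet2 (-0.77 to 0.12), Mbd4 (-0.26 to 0.20) and Gadd45a (-0.33 to 0.73) between the WT cell types, Tet1 (-0.21 to 1.23), Tet2 (-0.16 to 1.80), Tet3 (-0.14 to 0.54), Dnmt1 (-0.53 to 0.82), Uhrf1 (-0.24 to 1.27) and Mbd4 (-0.081 to 0.23) between the DKO cell types, and Uhrf1 (-0.75 to 0.76) and Mbd4 (-0.13 to 0.33) in the interaction. In mLNs they were Tet2 (-0.14 to 0.20) and Gadd45a (-0.11 to 0.10) in Treg cells, Tet3 (-0.40 to 0.065), Mbd4 (-0.13 to 0.10) and Gadd45a (-0.17 to 0.033) in Foxp3- cells, Tet2 (-0.050 to 0.10) between the WT cell types, Tet2 (-0.014 to 0.33) and Mbd4 (-0.059 to 0.10) between the DKO cell types, and Tet1 (-0.51 to 0.42), Tet2 (-0.021 to 0.32), Tet3 (-0.39 to 0.10), Dnmt3a (-0.14 to 0.051) and Gadd45a (-0.062 to 0.17) in the interaction. Tet2 also changed sign in mLN Treg cells with the replicate block (-0.015) and between the WT cell types with the 2 groups alone (-0.0055), and Dnmt3a in the mLN interaction with DESeq2's size factors (-0.0035) and DESeq2 (-0.00061).

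With CPM in place of TPM, the share of Tet1 was 8.17% in WT Treg and 11.4% in WT Foxp3- cells of spleen and pLNs, and 8.68%, 6.05% and 14.7% in WT Treg, DKO Treg and WT Foxp3- cells of mLNs. That of Tet2 was 10.9%, 13.4% and 6.96% in the same mLN groups, and that of Tet3 88.0% in DKO Foxp3- cells of spleen and pLNs. Low counts limit Dnmt3b, Gadd45a, Mbd4 and, in spleen and pLNs, Tet1 and Tet2, whose libraries held 16 to 140 reads of each of the last 2 genes.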
